A study of Mus musculus with 4 samples.

Results

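The 10 genes of neutrophil granules and neutrophil alarmins described here were measured in mouse hematopoietic progenitors: Mpo, Elane, Prtn3 and Ctsg, whose products fill the primary (azurophil) granules, Camp, Ngp, Ltf and Lcn2, whose products are held in the secondary (specific) granules, and S100a8 and S100a9, which encode the subunits of the cytosolic alarmin calprotectin. They were chosen by gene symbol. All 10 were found among 19938 named genes, each with 1 of the 28939 probe sets tested. The cells came from bone marrow by a sort on Lin- c-Kit+ Sca-1+ (called KLS), which takes in stem cells and early multipotent progenitors. Of the 4 Affymetrix arrays, 2 held Klf7-/- cells, labelled KLF7 KO, and 2 held Klf7+/+ cells, labelled wild type, where Klf7 is a Kruppel-like zinc finger transcription factor. Mice of C57Bl/6 background had been made chimeric with fetal liver cells, so that their marrow mixed both genotypes. The sources used here give no age, treatment or number of mice or embryos. The p-values then cover only the spread among these 4 samples, and that spread may be technical.

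Neutrophils make their granules in sequence as they mature. Promyelocytes pack the primary granules with myeloperoxidase and serine proteases, and myelocytes and metamyelocytes then fill the secondary granules with lactoferrin, lipocalin and the cathelicidin. S100a8 and S100a9 transcripts are abundant in late neutrophil precursors and mature neutrophils and are also made by monocytes, while transcripts of the primary granule genes, Mpo above all, are already found in early progenitors with myeloid potential. C/EBP factors and the ETS factor PU.1 (Spi1) are textbook activators of these genes.

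Promoter sequence was set beside the array values because members of each group were high on the same array, as given further on. All 10 promoters were matched in RefSeq (GRCm38.p6), as 250 bases before to 50 after the annotated start. The letters GAGGAA, a core of PU.1 sites, were searched on both strands and stood in 7 of the 10, against 28.3% of 32851 mouse promoters. The letters GCAAT, a short core of many C/EBP sites, stood in 8 of the 10, against 26.4%. The motifs share no overlap in these promoters, and both were picked with the member sequences in view. These matches describe letters, not binding. All 4 primary granule promoters held GAGGAA on the strand of the gene, and the 26-base windows below are shown to set these stretches side by side, with the motif in capitals.
Mpo, chr11:87793550-87793575, plus strand: tggagagagaGAGGAAgttgcctttg
Elane, chr10:79886217-79886242, plus strand: gtgtcccaggGAGGAAgtagggctgt
Prtn3, chr10:79879562-79879587, plus strand: aaactggaagGAGGAAgtgggaccca
Ctsg, chr14:56102775-56102800, minus strand: cccagaaggaGAGGAAgaaaaggaag

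The motif began at -224 of the annotated start in Mpo, which held another copy at -247, at -85 in Elane, at -95 in Prtn3 and at -216 in Ctsg. GAGGAA also stood in Ltf, Lcn2 and S100a8, on the reverse strand, but not in Camp, Ngp or S100a9. GCAAT stood in all 4 secondary granule promoters and in both alarmin promoters, against 2 of 4 in the primary granule group (Mpo and Elane). The whole promoters of Camp and Ngp and of S100a8 and S100a9 are shown because these were the members of the 2 groups that moved most between arrays. Capitals mark GAGGAA and GCAAT or their reverse complements TTCCTC and ATTGC.
Camp, chr9:109849407-109849706, minus strand: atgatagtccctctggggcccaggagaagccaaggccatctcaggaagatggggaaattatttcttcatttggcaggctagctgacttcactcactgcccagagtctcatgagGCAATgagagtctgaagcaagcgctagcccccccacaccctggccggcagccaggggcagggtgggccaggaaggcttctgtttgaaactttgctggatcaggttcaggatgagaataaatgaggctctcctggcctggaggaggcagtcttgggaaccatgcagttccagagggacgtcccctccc
Ngp, chr9:110419558-110419857, plus strand: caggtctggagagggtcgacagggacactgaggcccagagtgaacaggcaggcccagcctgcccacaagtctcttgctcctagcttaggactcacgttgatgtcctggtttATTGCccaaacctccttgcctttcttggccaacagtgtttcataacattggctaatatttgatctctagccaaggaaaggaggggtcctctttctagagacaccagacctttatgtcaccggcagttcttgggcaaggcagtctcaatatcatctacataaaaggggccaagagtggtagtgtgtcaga
S100a8, chr3:90668821-90669120, plus strand: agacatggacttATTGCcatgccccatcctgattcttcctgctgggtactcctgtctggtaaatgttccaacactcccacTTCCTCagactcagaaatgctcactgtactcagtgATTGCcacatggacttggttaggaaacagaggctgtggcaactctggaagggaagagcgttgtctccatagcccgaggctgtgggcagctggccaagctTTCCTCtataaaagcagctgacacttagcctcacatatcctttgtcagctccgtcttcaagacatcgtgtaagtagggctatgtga
S100a9, chr3:90695672-90695971, minus strand: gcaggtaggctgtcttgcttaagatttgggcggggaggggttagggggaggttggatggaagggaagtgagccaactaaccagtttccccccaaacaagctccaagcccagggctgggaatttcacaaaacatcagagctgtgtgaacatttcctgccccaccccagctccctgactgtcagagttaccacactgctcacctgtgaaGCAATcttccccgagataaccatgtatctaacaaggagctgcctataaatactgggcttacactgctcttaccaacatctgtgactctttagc

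S100a8 held both motifs, each in 2 copies on the reverse strand, whereas S100a9 held a single GCAAT at -43. Position groups the members in part. Prtn3 and Elane are neighbours on chromosome 10 with no annotated gene between them, and so are S100a8 and S100a9 on chromosome 3. Camp, Ngp and Ltf all lie on chromosome 9, with 8 protein-coding genes between Camp and Ngp and 20 between Ngp and Ltf. Mpo (chromosome 11), Ctsg (14) and Lcn2 (2) stand alone.

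Before the members are compared, the labels need a limit. Klf7 itself read no lower in the knockout arrays, with log2 intensities of 6.59 and 6.18 there, against 5.95 and 6.10 in wild type, a difference of 0.36 ± 0.21 (SE, n = 2 per group, limma adjusted p = 0.950). The sources used here do not say which part of Klf7 was deleted, and a probe set outside it checks nothing. Xist, the RNA of the inactive X chromosome, read 11.76 and 11.58 in knockout, against 5.24 and 4.80 in wild type, and the Y-linked Uty read 3.34 and 3.52 in knockout, against 6.13 and 6.48 in wild type, so genotype and these sex-linked transcripts cannot be told apart in any difference below. Across genes, arrays correlated at Pearson's r of 0.952 to 0.963, as a description. For the sort, Kit read 10.12 and 9.92 in knockout, against 9.55 and 9.71 in wild type, and Cd34 and Flt3 were likewise bright on all 4 arrays. Of 12 progenitor markers measured, 10 lay above the gene median and 2, Slamf1 and Tek, below it. Ly6a, the Sca-1 gene, was listed with them but was not among those measured. Ly6g, which defines mature neutrophils, read 4.48 and 4.36 in knockout, against 4.36 and 4.64 in wild type, below the gene median of 5.77. Of the 11 mature neutrophil markers measured, 7 lay below that median and 4 above it (Csf3r, Retnlg, S100a8 and S100a9).

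None of the 10 genes passed the test for a difference by genotype, which says little about change. The Y-linked Uty, at -2.88 (log2, knockout minus wild type), had a limma adjusted p of 0.284 and did not pass either. In limma (two-sided, Benjamini-Hochberg over all 28939 probe sets, threshold 0.05) 0 of 10 members passed, against 0.00346% of probe sets, that is Xist alone. At an unadjusted p under 0.05 there was 1 member of 10, Elane, against 4.81% of genes. Without overlap between the groups was again Elane alone, lower in knockout, where 18.6% of genes lay wholly below, 14.5% wholly above and 33.2% in either direction. The median difference of the 10 members was 0.04 (log2, knockout minus wild type), beside -0.03 over all genes. In bulk RNA of a sorted population, fewer cells of a type and less RNA per cell cannot be told apart, and this holds for every value here.

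**Figure D1:**
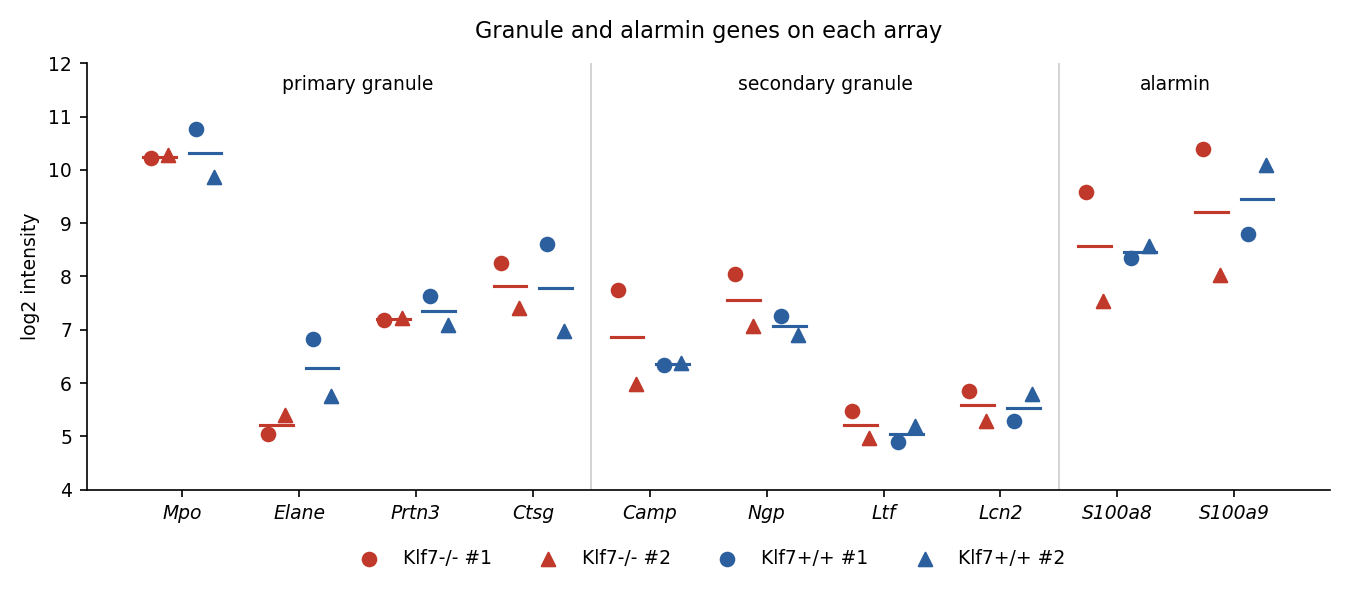
Log2 intensity (vertical axis) of the 10 genes on each array, with knockout arrays in red to the left of wild-type arrays in blue; circles and triangles are replicates 1 and 2 and short bars are group means (n = 2). Elane is the only gene whose groups do not overlap, at 5.04 and 5.41 in knockout, against 6.83 and 5.75 in wild type. Different genes have different probes, so heights of different genes are not compared.

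Primary granule genes were highest on 1 wild-type array. Elane, the neutrophil elastase gene, read 5.04 and 5.41 (log2 intensity) in knockout and 6.83 and 5.75 in wild type. Both knockout arrays lay below both wild-type arrays, but the wild-type arrays were 2.12-fold apart themselves. The difference was -1.07 ± 0.40 (SE, n = 2 per group), 0.476-fold with a 95% interval of 0.227 to 0.996, and the limma adjusted p was 0.945. It stood at -0.53 without wild-type replicate 1 and at -1.61 without wild-type replicate 2. Elane lies close to the gene median in brightness (49.7th percentile) and detection calls were not used here.

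Mpo encodes myeloperoxidase, which makes hypochlorous acid, and is a classical marker of myeloid commitment. It read 10.22 and 10.27 in knockout, against 10.76 and 9.87 in wild type. The knockout arrays were nearly equal and lay between the wild-type arrays, which were 1.86-fold apart. The difference was -0.07 ± 0.33, with a 95% interval of 0.523-fold to 1.75-fold. That interval covers only the spread among these arrays and does not bound an effect of genotype.

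Prtn3, the gene of proteinase 3 and the neighbour of Elane, repeated that order at a smaller scale, at 7.18 and 7.22 in knockout, against 7.63 and 7.09 in wild type (difference -0.17 ± 0.23, SE, n = 2 per group). Ctsg, which encodes the protease cathepsin G, read 8.25 and 7.41 in knockout, against 8.61 and 6.97 in wild type. The Ctsg groups overlapped fully, with the wild-type arrays 3.12-fold apart at both ends of the range. Its difference was 0.04 ± 0.62, and it turned with single arrays, to -0.38 without knockout replicate 1 and -0.78 without wild-type replicate 2. Wild-type replicate 1 was thus the highest array for 4 of 4 primary granule genes, as it was for 25% of all genes, and wild-type replicate 2 was the lowest for 3 of the 4. The group's median difference was -0.12.

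Secondary granule genes were highest on 1 knockout array. Camp, the cathelicidin gene whose peptide CRAMP kills bacteria, read 7.75 and 5.98 in knockout, against 6.33 and 6.37 in wild type. The wild-type arrays were 1.03-fold apart and lay between knockout arrays that were 3.41-fold apart. The difference was 0.52 ± 0.60 (SE, n = 2 per group, limma adjusted p = 0.969), and it was -0.37 without knockout replicate 1.

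Ngp, the neutrophilic granule protein gene of the cathelin-related family, read 8.04 and 7.08 in knockout, against 7.26 and 6.90 in wild type. A single knockout array was again above the other 3. The difference was 0.49 ± 0.37 and fell to 0.01 without that array, replicate 1. Ltf encodes lactoferrin, an iron-binding protein, and read 5.48 and 4.97 in knockout, against 4.90 and 5.19 in wild type. Lcn2 encodes lipocalin 2, which captures bacterial siderophores, and read 5.86 and 5.29 in knockout, against 5.28 and 5.80 in wild type. Both had overlapping groups, differed by 0.18 ± 0.25 and 0.04 ± 0.29, and lay below the gene median in brightness (30.3rd and 43.3rd percentile), where a fold depends on the floor of the array. All 4 differences of the group were above 0 with a median of 0.33, which was -0.16 without knockout replicate 1. That array was the highest for 4 of 4 secondary granule genes, as for 19.8% of all genes.

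The alarmin genes had the widest spread of the members. S100a8 read 9.59 and 7.54 in knockout, against 8.34 and 8.58 in wild type. The wild-type arrays lay close together inside a 4.14-fold gap between the knockout arrays. S100a9, whose product pairs with that of S100a8 and also signals through Tlr4, read 10.40 and 8.02 in knockout, against 8.80 and 10.09 in wild type. Its knockout arrays were 5.19-fold apart and its wild-type arrays 2.44-fold. The genotype differences were 0.11 ± 0.69 for S100a8 and -0.24 ± 0.90 for S100a9 (SE, n = 2 per group), with 95% intervals of 0.303-fold to 3.82-fold and 0.164-fold to 4.38-fold. Leaving out knockout replicate 1 put S100a8 at -0.92, and leaving out knockout replicate 2 put S100a9 at 0.95. In both genes knockout replicate 1 was the highest array and knockout replicate 2 the lowest.

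**Figure D2:**
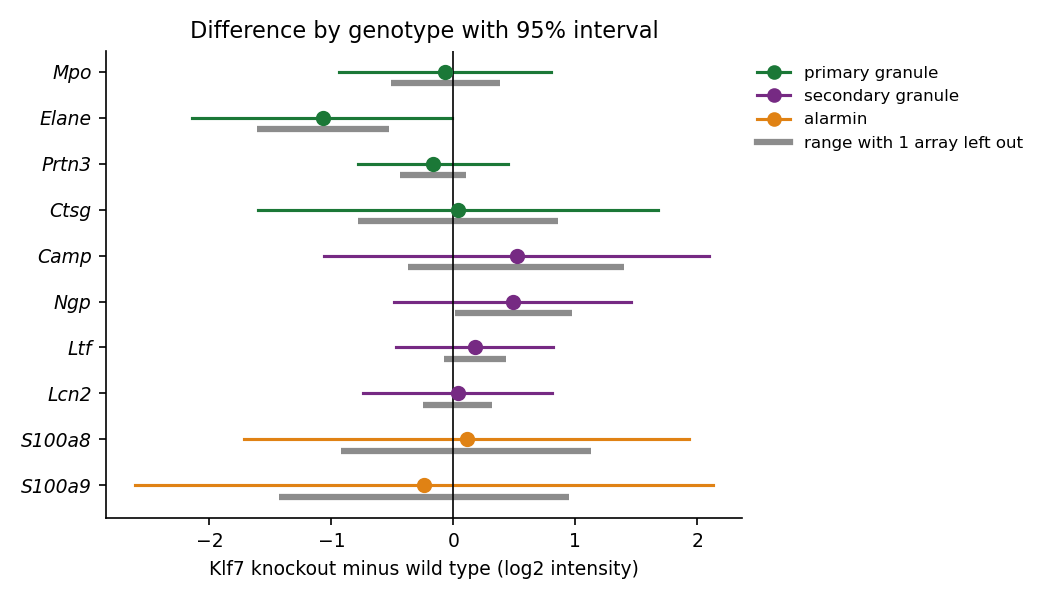
Log2 difference, knockout minus wild type (horizontal axis) for each gene, as a point with its 95% limma interval, coloured by group; the grey bar below spans the differences obtained with 1 array left out. Intervals run from -2.61 to 2.13 for S100a9 and from -0.78 to 0.45 for Prtn3, and only Elane keeps its whole grey bar well below 0.

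Arrays of 1 genotype lay far apart for several members. The knockout arrays were at least 2-fold apart in 3 of 10 members (Camp, S100a8 and S100a9), against 3.52% of genes. The wild-type arrays were at least 2-fold apart in 3 of 10 (Elane, Ctsg and S100a9), against 4.56%. From the lowest to the highest array, 6 of 10 members spanned 2-fold or more, against 12.4% of genes, and the median span was 1.39 on the log2 scale beside 0.46 over all genes. With 1 array on each side, these within-genotype differences have no replicate check.

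**Figure D3:**
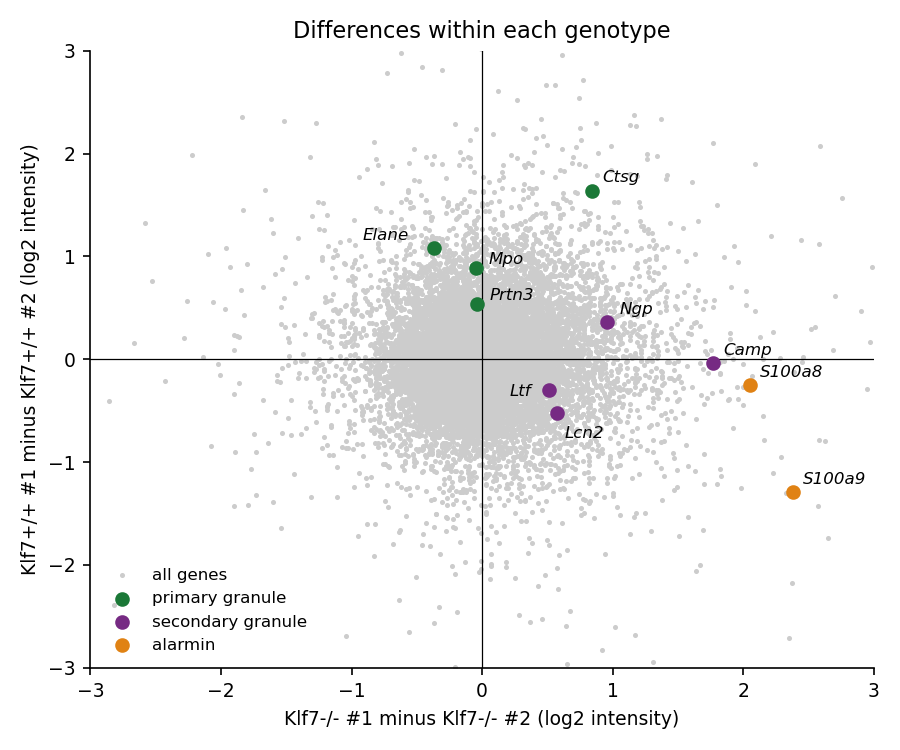
Each point is a gene, with replicate 1 minus replicate 2 of the knockout arrays on the horizontal axis and of the wild-type arrays on the vertical axis (log2 intensity); all genes are grey, 21 of them outside the axes, and members are coloured by group. Primary granule genes lie above 0 on the wild-type axis (0.54 to 1.64), while secondary granule and alarmin genes lie right of 0 on the knockout axis (0.51 to 2.38).

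Which array was high divided these 10 members by granule type. For Lcn2 the margin was small, at 5.86 on knockout replicate 1 and 5.80 on wild-type replicate 2. The longer lists given below did not divide this way. Centred on each gene's own mean, the primary granule genes averaged -0.11 and -0.20 in knockout, against 0.68 and -0.36 in wild type. The secondary granule genes averaged 0.63 and -0.32 in knockout, against -0.21 and -0.09 in wild type, and the alarmin genes 1.07 and -1.14 in knockout, against -0.35 and 0.42 in wild type. Knockout replicate 1 was thus highest for 6 of 6 secondary granule and alarmin genes and for 0 of 4 primary granule genes. Wild-type replicate 2 was raised for S100a9 (0.76) and Lcn2 (0.24) and near or below the gene mean for Camp (-0.24) and Ngp (-0.42), so the 6 did not share 1 profile.

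**Figure D4:**
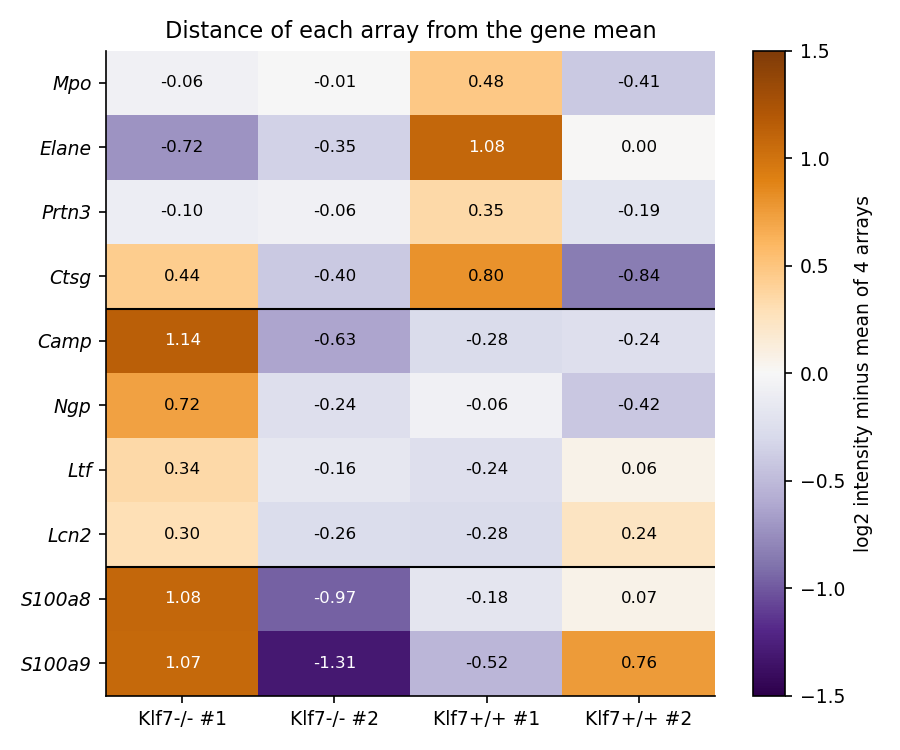
Log2 intensity minus the gene's mean over the 4 arrays, for each gene (rows, grouped by granule type) and array (columns, knockout left). The row values show wild-type replicate 1 as the high array of the primary granule genes (0.35 to 1.08) and knockout replicate 1 as the high array of the other 6 (0.30 to 1.14).

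Likeness to these profiles was measured as the root mean square distance over the 4 arrays, among 9962 other genes above the gene median. Nearest to the primary granule mean were Psmb3 (a proteasome subunit gene) at 0.02, Tmem176a at 0.03 and Mir199a-1 at 0.05, and nearest to the secondary granule mean were Asl (argininosuccinate lyase) and Mgat4a, both at 0.04, and Rbbp6 at 0.05. Nearest to the alarmin mean were Mrps18c, a mitochondrial ribosomal protein gene, at 0.02, Ppp4r2 at 0.18 and Yae1d1 at 0.19. The members themselves stood at 0.14 to 0.41 from the mean of their own group, farther than the nearest other gene of each group. Those nearest genes were picked as the closest of 9962, so that order was nearly fixed beforehand. With 4 arrays, such closeness is a description only.

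Other genes of the granule program gave no call either. Of 14 further genes measured from a list kept for the primary granule program, 0 passed limma and 0 had an unadjusted p under 0.05. Their median difference was -0.06. Not all of their products are held in primary granules. The largest differences above the gene median were in Serpinb1a, an inhibitor of elastase, proteinase 3 and cathepsin G, at -0.78 ± 0.40, in Lyz2 (lysozyme) at -0.53 ± 0.37 and in Gstm1 at -0.45 ± 0.20 (SE, n = 2 per group). Serpinb1a read 7.35 and 6.34 in knockout, against 7.89 and 7.37 in wild type. Its groups did not overlap, as for 2 of the 14, against 33.2% of all genes, and it was highest on wild-type replicate 1 like its target proteases. That array was the highest for 3 of the 14, wild-type replicate 2 for 6 and knockout replicate 1 for 4, against 25%, 30.7% and 19.8% of all genes. Ctsc, which encodes the peptidase that activates those proteases, read 6.56 and 6.75 in knockout, against 6.40 and 7.16 in wild type and was highest on the other wild-type array.

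Among 23 other genes listed with the secondary and tertiary granules, 0 passed limma and 2 had an unadjusted p under 0.05. Of these 23, 9 were higher and 14 lower in knockout, and the median was -0.06. Retnlg, which encodes a resistin-like protein of mature neutrophils, read 5.93 and 5.67 in knockout, against 7.06 and 7.14 in wild type. Its groups stood apart, at -1.31 ± 0.18 (SE, n = 2 per group) with a limma adjusted p of 0.814. Groups without overlap were found for 7 of the 23, against 33.2% of all genes. Pglyrp1, a peptidoglycan recognition protein gene, read 6.77 and 6.23 in knockout, against 7.13 and 7.67 in wild type, a difference of -0.90 ± 0.29. Cyba, the p22phox gene of the NADPH oxidase, lay the other way at 0.55 ± 0.24. Both Retnlg and Pglyrp1 were highest on wild-type replicate 2, unlike the 4 secondary granule members. Of the 23, wild-type replicate 2 was the highest array for 10 and knockout replicate 1, the high array of the members, for 5, against 30.7% and 19.8% of all genes. Among the 5 was Chil3, dim and named after its values were seen, at 5.09 and 3.02 in knockout, against 3.06 and 3.22 in wild type.

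**Figure D5:**
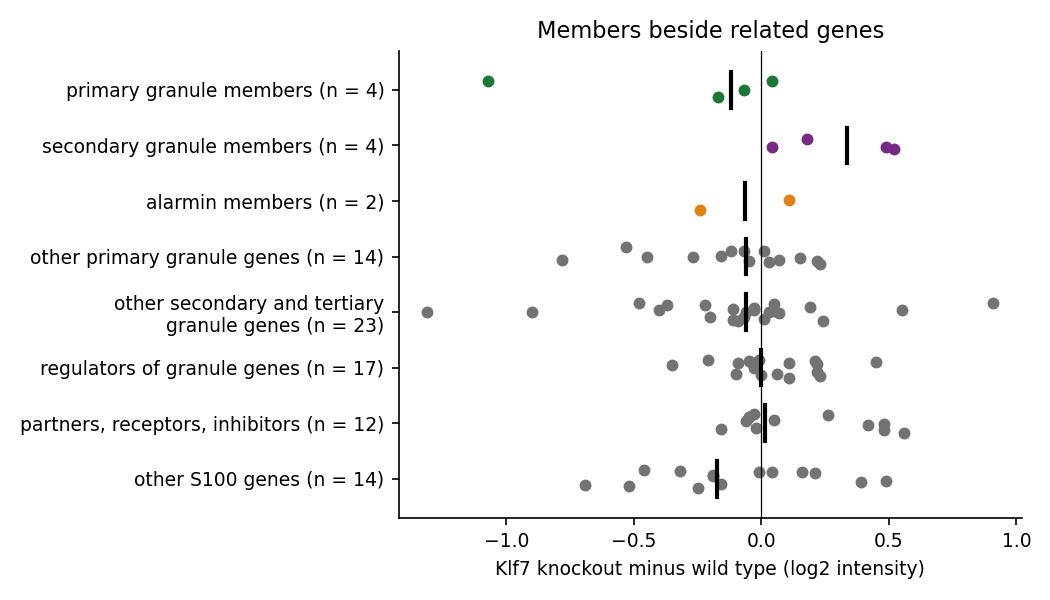
Log2 difference, knockout minus wild type (horizontal axis) for every measured gene of each list, with members coloured and a black bar at the list's median; vertical scatter within a list has no meaning. Medians lie between -0.17 for the other S100 genes and 0.33 for the secondary granule members, and no gene shown passed the limma threshold.

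The regulators of these genes were measured in 17 of 17 cases, and 0 passed limma or had an unadjusted p under 0.05. Spi1 (PU.1) read 6.27 and 6.95 in knockout, against 7.20 and 5.91 in wild type. Its high and low arrays were thus the wild-type replicates, as for Mpo, Prtn3 and Ctsg but not for Elane, lowest on knockout replicate 1. Cbfb, Stat3 and Per3 of the same list had these high and low arrays too. The share of all genes with this order was not worked out, and a link to the granule genes was not tested. Cebpe, the C/EBP factor needed for secondary granules, read 6.16 and 5.87 in knockout, against 5.72 and 5.86 in wild type, a difference of 0.22 ± 0.19. Knockout replicate 1, the high array of the secondary granule members, was the highest for Cebpe and for 7 of the 17 regulators in all. Wild-type replicate 1 was the highest for 5 of the 17. Over all genes these shares were 19.8% and 25%. Cebpa read 7.34 and 6.75 in knockout, against 6.97 and 6.89 in wild type, and Gfi1, a repressor needed for neutrophil maturation, 6.18 and 5.93 in knockout, against 6.16 and 6.03 in wild type. The largest differences by the naming rule were in Runx1 at 0.45 ± 0.22, Lmo4 at -0.35 ± 0.30 and Myb at 0.23 ± 0.23, all with a limma adjusted p of 0.949 or more; Spi1, Cebpe, Cebpa and Gfi1 were named for their role.

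Receptors, partners and inhibitors of the products gave 0 limma calls among 12 measured, with 1 unadjusted p under 0.05 and a median of 0.01. Ncf1, an NADPH oxidase subunit gene, differed by 0.42 ± 0.16, Slpi, a secreted inhibitor of elastase and cathepsin G, by 0.26 ± 0.23 and Ncf4 by -0.06 ± 0.18. The S100a9 receptor gene Tlr4 was dim, at 5.06 and 4.66 in knockout, against 4.78 and 5.04 in wild type. Of 14 other S100 family genes, 0 passed, 2 had an unadjusted p under 0.05 and the median was -0.17. S100a11 read 10.47 and 10.32 in knockout, against 11.03 and 11.13 in wild type, at -0.69 ± 0.16, S100g differed by 0.49 ± 0.15 and S100pbp, a binding protein gene of the family, by 0.39 ± 0.28. On the brighter of its 2 probe sets, the only one used here, the groups of S100a11 stood apart. This held for 5 of the 14 in all, against 33.2% of all genes. The groups of S100a8 and S100a9 overlapped, and whether these differences differ was not tested.

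Markers of mature cells differed in which array was highest. Of 11 mature neutrophil markers measured, 2 are the alarmin members, and the summed intensity of the other 9 was 440 and 387 in knockout, against 433 and 536 in wild type. The order of that sum rested on Retnlg, at intensities of 61 and 51 in knockout, against 133 and 141 in wild type; without it, a choice made after its values were seen, the other 8 summed to 379 and 336 in knockout, against 299 and 395 in wild type. Neither sum had gaps like those of S100a8, at linear intensities of 771 and 186 in knockout, against 323 and 383 in wild type. Only Csf3r and Retnlg among the 9 lay above the gene median. Sums of mostly dim genes could hardly show such gaps, so this comparison decides nothing about cell content, which was not tested. Of the 9 markers, 4 were highest on knockout replicate 1 (Csf3r, Mmp8, Mmp9 and Clec4d) and 5 on wild-type replicate 2. Mmp8 read high on the first of these, at 5.21 and 4.23 in knockout, against 4.40 and 4.93 in wild type, and Cxcr2 did not, at 5.36 and 5.28 in knockout, against 3.78 and 5.79 in wild type; both lay below the gene median and were named after their values were seen. Csf3r, the receptor gene for the cytokine that drives neutrophil production, differed by 0.21 ± 0.17 (SE, n = 2 per group). Of 10 monocyte and macrophage markers, 9 had a lower mean in knockout, as had 55% of all genes, though Cx3cr1 among the 9 differed by 0.00. Their median was -0.15, and 1 had an unadjusted p under 0.05. Their summed intensity was 726 and 741 in knockout, against 837 and 882 in wild type. That separation rested on Lyz2, at intensities of 194 and 97 in knockout, against 218 and 182 in wild type. Without it, a choice made after its values were seen, the other 9 summed to 532 and 644 in knockout, against 619 and 700 in wild type. The largest difference among markers of this list above the gene median was in Ms4a6c at -0.64 ± 0.16, and Cd68 stood at 0.28 ± 0.38.

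Of 10 eosinophil, basophil and mast cell markers, 4 were highest on wild-type replicate 1, against 25% of all genes. That is the array where the primary granule genes were highest. Of the rest, 3 were highest on knockout replicate 2, 2 on knockout replicate 1 and 1 on wild-type replicate 2. Over all genes these shares were 24.6%, 19.8% and 30.7%. Their summed intensity over 10 genes was 429 and 529 in knockout, against 1303 and 426 in wild type. The high value rested on 1 gene, Prg2, the major basic protein gene of eosinophil granules, at 6.44 and 7.11 (log2) in knockout, against 9.77 and 6.42 in wild type. Without Prg2, a choice made after its values were seen, the other 9 summed to 342 and 391 in knockout, against 428 and 340 in wild type. Epx, the eosinophil peroxidase gene, was dim at 4.10 and 4.33 in knockout, against 5.09 and 4.30 in wild type. Prg3 read 5.31 and 5.51 in knockout, against 6.41 and 5.82 in wild type, and each was highest on wild-type replicate 1. Il5ra was dim, at 3.70 and 4.30 in knockout, against 4.31 and 4.28 in wild type. Its highest array was also wild-type replicate 1, by a small margin only. Mcpt8 at 0.40 ± 0.32 and Cpa3, at 6.32 and 7.03 in knockout, against 6.93 and 6.43 in wild type, markers of basophils and mast cells, were not highest there. The part of these cells in the primary granule values was not tested.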

How the data were processed

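The authors deposited 1 table of linear intensity values, by probe set and by array. Per the submitters' processing notes, RMA and Affymetrix Expression Console were used, with no version given. RNA was amplified with the NuGen Ovation System and biotin labelled, per the labels' protocols. Values of tested probe sets reached 17721 with array medians of 51.01 to 52.26, so log2 was taken and no further normalization applied. Precision is limited by the number of arrays.

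Of 35554 probe sets, the 6615 that precede the first annotated one were taken as controls and left out. The platform annotation (2016) gave 1 symbol for 21789 probe sets, several for 1621 and none for 5529; 21698 Entrez IDs matched RefSeq (GRCm38.p6), which gave current symbols. A gene with several probe sets was represented by the brightest. Genotypes were compared in R 4.3.3 with limma 3.58.1 (lmFit, eBayes, 2 residual degrees of freedom), tested on simulated data. All adjusted p-values and standard errors come from this fit. The members and lists were chosen with earlier results of these data known. Of each other list, up to 3 genes above the gene median with the largest difference were named, and others are marked or named for their role. Alternatives were quantile normalization again, cyclic loess, an added offset of 32, a filter on dim probe sets, an intensity trend with and without robust estimation, the leading probe sets kept, a replicate block, all probe sets of a gene averaged and each array left out.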

Additional observations from a re-analysis of the deposited data

How the results depend on the processing

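No member passed the limma threshold under any alternative, with adjusted p from 0.678 upward, so keeping the side of the threshold says little. The single call over all probe sets, Xist, became 0 with quantile normalization again, an offset of 32, an intensity trend, an intensity trend with robust estimation, the leading probe sets kept and the replicate block, where 1461, 1488, 1495, 1464, 1696 and 1530 probe sets had an unadjusted p under 0.05; the cause was not tested. It was 0 to 0 with each array left out (1177 to 2069 unadjusted). The labels do not say what the replicate numbers share; deviations of same-numbered arrays correlated at 0.0288 across genes, and under the block, which by construction leaves a difference as it is in this balanced design, Elane had an adjusted p of 0.881. With an array left out, the members' median ran from -0.31 to 0.44, that of the primary granule genes from -0.65 to 0.24, of the secondary granule genes from -0.16 to 0.70 and of the alarmin genes from -1.17 to 1.04. The members without overlap then numbered 4 to 7, since overlap is easier to avoid with 3 arrays. The share of all genes without overlap was not worked out for those settings, so this count is not read as a result. Single genes turned direction with an array left out: Camp ran from -0.37 to 1.40, Ctsg from -0.78 to 0.86, Lcn2 from -0.25 to 0.32, Ltf from -0.08 to 0.43, Mpo from -0.51 to 0.38, Prtn3 from -0.44 to 0.10, S100a8 from -0.92 to 1.13 and S100a9 from -1.43 to 0.95. Elane (-1.61 to -0.53) and Ngp (0.01 to 0.97) did not. With all arrays kept, only Ctsg turned, to -0.01 with quantile normalization again; Elane stood at -0.69 with an offset of 32. The filter on dim probe sets removed Ltf and Lcn2. Each member has 1 probe set, so averaging probe sets changed none. Detection over background was not used here.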

Other observations

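Lists of the other blood lineages, read for the same 4 arrays, held no gene past the limma threshold, with adjusted p of 0.945 or more; 1 T and NK cell gene, 1 megakaryocyte gene and 2 progenitor markers had an unadjusted p under 0.05. The median log2 difference between knockout and wild type was 0.00 over 9 B cell genes, -0.09 over 12 T and NK cell genes, 0.11 over 8 erythroid genes and 0.05 over 8 megakaryocyte and platelet genes. Knockout replicate 1, the high array of Camp and S100a8, was the highest for 19.8% of all genes. It was the highest for 1 of the 12 T and NK cell genes and 2 of the 8 megakaryocyte and platelet genes. The counts were 3 of the 9 B cell genes and 3 of the 8 erythroid genes, where knockout replicate 2 was also the highest for 3 erythroid genes. Among those highest on knockout replicate 1 was Vpreb1, a gene of the surrogate light chain of the pre-B cell receptor. It read 8.59 and 5.49 in knockout, against 5.57 and 5.35 in wild type. Igll1, the gene of the other part of that chain, was lowest on that array, at 5.67 and 6.01 in knockout, against 6.50 and 5.90 in wild type. Car1, an erythroid carbonic anhydrase gene, was highest on it too, at 8.68 and 7.52 in knockout, against 6.48 and 8.01 in wild type. Among 12 markers of the sorted progenitors, 8 lay wholly above and 1 wholly below wild type in knockout, against 14.5% and 18.6% of all genes, with a median of 0.29. Cd34, a progenitor surface antigen gene, read 10.24 and 10.22 in knockout, against 9.65 and 9.57 in wild type, at 0.62 ± 0.15 (SE, n = 2 per group), Cd48 differed by 0.50 ± 0.23 and Mecom by -0.71 ± 0.25; the second Mecom probe set was not used for these counts.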
